A study of Mus musculus with 24 samples.

Results

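Granulocyte monocyte progenitors (GMP), blood progenitors committed to neutrophils and monocytes, were compared with induced mouse embryonic fibroblasts (MEF), each sorted as the fast dividing cells of its culture. The libraries were taken by their labels, 5 of fast GMP and 4 of fast MEF, out of 24 in the series. The comparison covers 2 questions, which genes separate fast dividing cells of unlike lineage, and which are high in both.

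Fast GMP had been grown in serum-free medium with 100 ng/ml SCF and 50 ng/ml each of IL3 and Flt3L among its cytokines. CFSE, a dye whose signal falls with each division, had been diluting for 24 hours when they were sorted. Fast MEF had been grown for 6 days in embryonic stem cell medium with 15% serum, 1000 U/ml LIF and 2 ug/ml doxycycline, which induced the Yamanaka factors, with 48 hours of dye dilution before the sort. Every library was made from the cytosolic RNA of 1000 sorted cells. Lineage, factor induction, medium and hours on the dye thus differed together between the groups, and what goes with each of them cannot be told apart. The sources used here do not give the strain, the age of the animals or the construct that carried the factors. Whether replicates are different animals, cultures or sorts is not in the labels, and p-values thus rest on a spread between libraries that could be technical. In libraries of 1000 cells, fewer cells of a type and less RNA per cell cannot be told apart.

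Progenitors of neutrophils make large amounts of proteases and myeloperoxidase, which they store in primary granules, and the transcription factors PU.1 and C/EBP are known to drive these genes. Fibroblasts under the Yamanaka factors lose fibroblast genes and gain epithelial ones early in reprogramming. Cells of any lineage that divide fast need the enzymes of DNA replication and mitosis and make many ribosomes.

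Fast GMP libraries held 2144732 to 4411526 counts and fast MEF libraries 4937453 to 10248532. Rn45s and Lars2, which collect ribosomal RNA reads, took 19.9% to 48.9% of the counts in fast GMP and 6.83% to 10.2% in fast MEF, and both were left out before scaling. Fast GMP replicate 1 stood apart, detecting 18400 genes where the other fast GMP libraries had 9378 to 13902 and fast MEF 13923 to 14726. Its correlation with the other fast GMP libraries over log2 levels was 0.52 to 0.59, the lowest within either group. Pairs of libraries correlated at 0.523 to 0.718 within fast GMP, 0.821 to 0.926 within fast MEF and 0.363 to 0.421 between them. Levels are given as CPM, the counts scaled by TMM-adjusted library totals, and are not corrected for gene length.

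Of 10459 genes tested, 1467 passed edgeR's quasi-likelihood test at an adjusted p of 0.05 (14.0%), 781 higher in fast GMP (7.47%) and 686 lower (6.56%). Higher calls were 53.2% of the total, but 38.0% (519 higher and 845 lower) when libraries were scaled by their totals alone, which moved the median log2 fold change of all genes by -0.59 from 0.21. Without fast GMP replicate 1, 2293 genes passed, 1028 higher and 1265 lower. Without fast MEF replicate 1, 2 or 4, the count was 856, 813 or 819. In 2277 genes (21.8%) the libraries of the groups did not overlap. Among the calls, 44 genes had no count in any fast MEF library and 18 none in any fast GMP library.

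**Figure D1:**
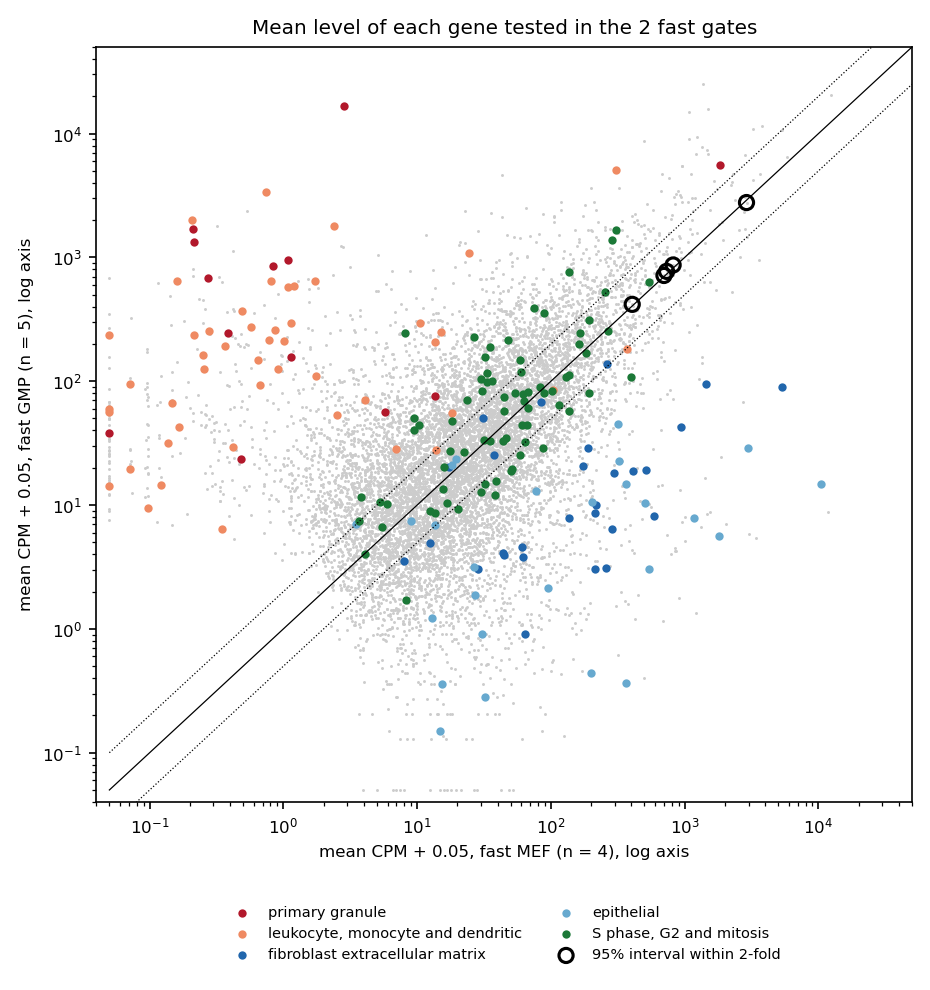
Mean CPM plus 0.05 of each of the 10459 genes tested, fast MEF (n = 4) on the horizontal and fast GMP (n = 5) on the vertical log axis, with the line of equal levels (solid) and 2-fold lines (dotted). Primary granule and leukocyte genes lie near the left edge and matrix and epithelial genes low on the right, while S phase and mitosis genes and the 5 genes with an interval within 2-fold (circles) lie around the diagonal.

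All 13 primary granule genes that could be tested, of 15 in the list, were higher in fast GMP, beside 7.47% of all genes. Their median log2 fold change was 9.78 against 0.21 over all genes. Mpo, myeloperoxidase, stood at 4573, 7292, 21005, 24296 and 26816 CPM in fast GMP replicates 1 to 5 and at 0.961, 1.83, 4.21 and 4.06 CPM in fast MEF replicates 1 to 4 (log2 fold change 12.56 ± 0.61 SE, adjusted p = 3.68e-05). The libraries lay far apart, with fast GMP replicates 1 and 2 lowest in their group. Elane, neutrophil elastase, was at 781, 1506, 2139, 2717 and 1386 CPM in fast GMP and at 0.384, 0, 0 and 0.254 CPM in fast MEF (log2 fold change 13.09 ± 0.83 SE, adjusted p = 6.43e-05). Prtn3, proteinase 3, was at 511, 1441, 951, 1399.6 and 2360.2 CPM in fast GMP and 0.192, 0.183, 0.191 and 0.0845 CPM in fast MEF (log2 fold change 12.83 ± 0.63 SE, adjusted p = 1.43e-05). For both proteases every fast GMP library exceeded every fast MEF library. Ctsg, cathepsin G, was at 247, 286, 812, 2021 and 859 CPM in fast GMP and at 0, 0, 3.06 and 0.0845 CPM in fast MEF (log2 fold change 10.19 ± 1.22 SE, adjusted p = 0.00321). Nearly all of its fast MEF signal came from replicate 3, and without that library the log2 fold change was 13.93. Without fast GMP replicate 4 it was 9.53, and Elane was at 13.69 without fast MEF replicate 1. The list also held Calr, a chaperone of the endoplasmic reticulum that every cell uses, at 2479, 3884, 4648, 9095 and 7779.9 CPM in fast GMP and 2619.6, 1740.3, 1512 and 1523 CPM in fast MEF (log2 fold change 1.59 ± 0.46 SE, adjusted p = 0.0439). Its groups overlapped and its call was lost without any one of the fast MEF libraries (adjusted p 0.0917 to 0.167) and without fast GMP replicate 3, 4 or 5 (0.0589, 0.0742 and 0.0567). Calr made up most of the summed level of the list in fast MEF, 1539.5 to 2643 CPM against 10177 to 42273 in fast GMP.

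The promoters of 4 granule genes are shown because these genes differed together and share a short motif. They run from 250 bases before to 50 after the RefSeq start, in build GRCm38.p6, 5′ to 3′ on the gene's own strand. Capitals mark GAGGAA, the core bound by ETS factors such as PU.1.
Mpo, chr11:87793534-87793833, plus strand: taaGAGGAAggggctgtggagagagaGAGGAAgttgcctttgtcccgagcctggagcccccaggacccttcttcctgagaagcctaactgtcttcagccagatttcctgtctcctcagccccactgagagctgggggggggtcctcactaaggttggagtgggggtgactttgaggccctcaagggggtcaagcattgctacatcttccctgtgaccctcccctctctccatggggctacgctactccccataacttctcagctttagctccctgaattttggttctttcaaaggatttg
Elane, chr10:79886062-79886361, plus strand: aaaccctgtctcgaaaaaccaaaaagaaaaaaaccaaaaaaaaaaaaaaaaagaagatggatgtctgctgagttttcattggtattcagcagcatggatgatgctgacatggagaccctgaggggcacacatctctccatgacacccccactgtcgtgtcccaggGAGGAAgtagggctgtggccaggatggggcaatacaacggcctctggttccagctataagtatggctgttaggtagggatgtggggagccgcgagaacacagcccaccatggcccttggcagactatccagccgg
Prtn3, chr10:79879417-79879716, plus strand: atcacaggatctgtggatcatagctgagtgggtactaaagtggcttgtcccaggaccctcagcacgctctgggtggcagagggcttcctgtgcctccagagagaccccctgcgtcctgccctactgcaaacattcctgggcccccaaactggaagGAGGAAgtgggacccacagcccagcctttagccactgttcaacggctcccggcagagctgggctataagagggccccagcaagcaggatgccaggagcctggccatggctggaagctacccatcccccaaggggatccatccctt
Ctsg, chr14:56102525-56102824, minus strand: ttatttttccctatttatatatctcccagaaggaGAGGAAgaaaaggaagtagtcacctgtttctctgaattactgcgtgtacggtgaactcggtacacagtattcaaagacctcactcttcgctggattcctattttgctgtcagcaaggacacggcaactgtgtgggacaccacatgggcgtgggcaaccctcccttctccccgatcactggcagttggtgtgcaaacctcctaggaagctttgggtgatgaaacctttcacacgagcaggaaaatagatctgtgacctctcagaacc
Searched on both strands, GAGGAA occurred in 28.3% of 32851 RefSeq promoters of this length and in all 4 shown, on the gene's strand, starting 247 and 224 bases before the start in Mpo, 85 in Elane, 95 in Prtn3 and 216 in Ctsg. TTGCNNAA, a C/EBP motif, occurred in 10.8% of all promoters and in none of the 4. No match of one motif overlapped a match of the other. Over the list, 8 of the 12 promoters found held GAGGAA and 1 held TTGCNNAA. Of 16 promoters found for the list of fibroblast extracellular matrix genes, 5 held GAGGAA and 1 held TTGCNNAA. The 4 are shown because they share GAGGAA, so its presence in all 4 is no test of enrichment. None of these shares was tested. A match is a string of letters, not a measured binding site. Elane and Prtn3 lie close together on chromosome 10.

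Of 16 genes of later neutrophil maturation, 10 could be tested, 8 were higher in fast GMP, beside 7.47% of all genes, and none lower. Their summed level was 374, 308, 233, 559 and 607 CPM in fast GMP and 13.8 to 31.95 CPM in fast MEF. S100a9, a calcium-binding protein of mature granulocytes, was at 76.7, 36.9, 33.1, 11.01 and 30.98 CPM in fast GMP and had no count in fast MEF, at least 483-fold higher when the group's zero is set to a floor of 3 counts in all (edgeR adjusted p = 0.00111). Cybb, the catalytic subunit of the phagocyte oxidase, was at 70.9 to 122 CPM against 0.192 to 0.55 (log2 fold change 7.96 ± 0.60 SE, adjusted p = 0.000122). Mmp8, neutrophil collagenase, was at 22.2, 34.98, 24.9, 34.7 and 123 CPM and 0, 0.0916, 1.72 and 0 CPM (log2 fold change 6.84 ± 1.21 SE, adjusted p = 0.012). Its level leaned on fast GMP replicate 5 (log2 6.10 without it) and on fast MEF replicate 3 (9.77 without it), and its call was lost without fast MEF replicate 2 (adjusted p = 0.0525).

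Myeloid transcription factors went mostly the same way, with 13 of 20 tested higher in fast GMP and 1 lower. Of all genes, 7.47% were higher and 6.56% lower. Sfpi1, the file's name for PU.1 (Spi1), stood at 276, 909, 1726, 3146 and 2968 CPM in fast GMP and 0, 0.458, 0.191 and 0.423 CPM in fast MEF (log2 fold change 12.56 ± 0.88 SE, adjusted p = 0.000159). Replicate 1 was lowest in fast GMP and the groups were far apart. Cebpe, the C/EBP factor of granule formation, was at 30.8, 62.6, 1346, 1849 and 139 CPM in fast GMP with no count in fast MEF, at least 8769.8-fold higher (adjusted p = 0.00296). Its spread within fast GMP was wide, and replicates 3 and 4 carried most of the mean (at least 5048-fold without replicate 4). Irf8, the factor of monocyte and dendritic fate, was at 63.5, 215, 171, 169 and 1292 CPM in fast GMP and at 0 to 1.15 CPM in fast MEF (log2 fold change 10.09 ± 1.20 SE, adjusted p = 0.00234). It was highest in replicate 5, without which the log2 fold change was 8.80, and it was 11.38 without fast MEF replicate 3. Cebpa, the C/EBP factor that GMP formation needs, differed less, 149, 54.7, 197, 200.4 and 9.99 CPM against 12.4, 4.67, 2.68 and 16.9 (log2 fold change 3.73 ± 0.84 SE, adjusted p = 0.0238). Fast GMP replicate 5 fell within the fast MEF range, and the adjusted p was 0.0523 to 0.0945 without each one of the fast MEF libraries. Runx1, a factor of all blood formation, was at 94.6 to 348 CPM against 23.7 to 41.6 (log2 fold change 2.63 ± 0.56 SE, adjusted p = 0.014, and 0.0547 to 0.0634 without each one of the fast MEF libraries). Gata2, a factor of early blood progenitors, mast cells and several other tissues, was the member that was lower, at 49.9, 109, 2.58, 7.16 and 17.99 CPM in fast GMP and 393, 358, 365 and 409 CPM in fast MEF (log2 fold change -3.35 ± 0.87 SE, adjusted p = 0.0304). The groups did not overlap, but the adjusted p lay at 0.0579 to 0.0681 without each one of the fast MEF libraries and at 0.0534 and 0.061 without fast GMP replicate 4 or 5, and the log2 value was -4.26 without fast GMP replicate 2.

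Of 11 receptors for blood cytokines, 7 were higher in fast GMP, beside 7.47% of all genes, and none lower. Csf2rb, the chain that the receptors for IL3 and GM-CSF share, stood at 1454, 1082, 703, 568 and 1844 CPM in fast GMP and 0.288, 0.183, 0.574 and 0.423 CPM in fast MEF (log2 fold change 11.54 ± 0.57 SE, adjusted p = 1.72e-05). It was among the steadiest lineage genes, with no overlap and less than a 4-fold range within fast GMP. Csf1r, the receptor of the macrophage growth factor, was at 63.5 to 357 CPM against 0 to 1.01 (log2 fold change 9.16 ± 0.89 SE, adjusted p = 0.000678, and log2 10.20 without fast MEF replicate 2). Tnfrsf1b, a receptor for TNF, was at 327 to 1592 CPM against 21.6 to 48.3 (log2 fold change 4.48 ± 0.58 SE, adjusted p = 0.00163, and log2 3.87 without fast GMP replicate 3). Csf2ra, the other chain of the GM-CSF receptor, was at 119 to 716 CPM in fast GMP and at 2.79, 3.94, 87.5 and 13.8 CPM in fast MEF (log2 fold change 3.96 ± 0.93 SE, adjusted p = 0.0312). Without fast MEF replicate 3 its log2 fold change was 5.89, and its call was lost without fast MEF replicate 1, 2 or 4 (0.0766, 0.0885 and 0.104) or fast GMP replicate 2, 4 or 5 (0.0566, 0.0529 and 0.0551). Kit, the SCF receptor by which GMP are usually sorted, varied most among these receptors, at 24.5, 8.87, 62.4, 2.2 and 497 CPM in fast GMP and 0.384, 0, 0 and 0 in fast MEF (log2 fold change 9.88 ± 1.74 SE, adjusted p = 0.00821, and at least 1109-fold higher without fast MEF replicate 1, the only one of its group with counts). Replicate 5 held most of the Kit signal and replicate 4 the least. Cd34, another surface marker of GMP, did not pass the test, at 22.2, 45.8, 18.9, 21.5 and 29.98 CPM in fast GMP and 21.5, 21.4, 1.15 and 11.5 CPM in fast MEF (log2 fold change 0.99 ± 0.79 SE, adjusted p = 0.44, 95% interval -0.74 to 2.72).

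General leukocyte genes were higher in 29 of 36 tested, beside 7.47% of all genes, and lower in none, with a median log2 fold change of 7.86. Ptprc, the leukocyte antigen CD45, was at 35.1, 94.6, 116, 182 and 319.7 CPM in fast GMP and 1.06, 0.183, 1.15 and 0 CPM in fast MEF (log2 fold change 7.97 ± 0.96 SE, adjusted p = 0.00207). Coro1a, an actin-binding protein of blood cells, was at 661 to 3308 CPM against 0.766 to 3.84 (log2 fold change 9.55 ± 0.61 SE, adjusted p = 0.000107). Laptm5, a lysosomal protein of blood cells, was at 258 to 1782 CPM against 0 to 3.3 (log2 fold change 8.55 ± 0.89 SE, adjusted p = 0.00123, and log2 7.75 without fast GMP replicate 4). Arhgdib, a signalling regulator of leukocytes, was at 627 to 1609 CPM against 5.58 to 33.996 (log2 fold change 5.48 ± 0.56 SE, adjusted p = 0.000592). Cyba, the small subunit of the phagocyte oxidase, was at 2724 to 7907 CPM against 104 to 479.5 (log2 fold change 4.05 ± 0.54 SE, adjusted p = 0.00164). The groups did not overlap for any of these genes.

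Markers of mature monocytes, macrophages and dendritic cells were part of the same difference. All 12 tested of 16 were higher in fast GMP, beside 7.47% of all genes. Their summed level was 4473, 5203, 10279, 7806 and 8473 CPM against 10.9 to 20.4 CPM in fast MEF. Cd74, the chaperone of class II molecules, was at 2659, 2216, 3565, 4140.5 and 4172 CPM in fast GMP and 0.576, 0.733, 0.766 and 0.676 CPM in fast MEF (log2 fold change 12.21 ± 0.41 SE, adjusted p = 2.37e-06). H2-Ab1, a class II chain, was at 769, 1314, 4351, 1958 and 1625 CPM and 0, 0.183, 0.191 and 0.254 CPM (log2 fold change 13.45 ± 0.79 SE, adjusted p = 3.96e-05). H2-Aa, its partner chain, was at 256 to 1110.4 CPM against 0 to 0.254 (log2 fold change 12.29 ± 0.97 SE, adjusted p = 0.000136, and log2 13.09 without fast MEF replicate 4). Cd68, a macrophage lysosomal protein, was at 86.1 to 543 CPM against 4.98 to 17.8 (log2 fold change 4.81 ± 0.63 SE, adjusted p = 0.00177). These genes were present in all 5 fast GMP libraries, and what part more mature cells had in the differences above was not tested. Markers of other blood lineages mostly missed the filter on low counts. Of 12 mast cell and basophil markers, 2 passed it and Hdc, which makes histamine, was higher at 0.999 to 27.7 CPM against 0 to 0.183 (log2 fold change 7.57 ± 1.44 SE, adjusted p = 0.00496, and at least 126-fold higher without fast MEF replicate 2, the only one with counts, 2 in all, for a pooled ratio of 305, with an exact Poisson 95% interval of 84.5 to 2522). Of 12 erythroid and megakaryocyte markers 2 passed the filter, and of 13 lymphoid markers 1, with no call. Summed over all members in the file and scaled over all 24 libraries, mast cell markers stood at 9.34 to 230.4 CPM, erythroid and megakaryocyte markers at 4.41 to 303 CPM and lymphoid markers at 1.6 to 80.9 CPM in fast GMP. In the same order, fast MEF were at 4.09 to 6.69, 3.93 to 13.2 and 5.42 to 8.17 CPM. Bulk, unsorted MEF were at 151 to 207, 3.48 to 56.2 and 25.7 to 62.7 CPM. Which cells gave these sums was not tested. Of 4 endothelial genes tested, 2 were higher and 1 lower, beside 7.47% and 6.56% of all genes. Pecam1, which leukocytes also carry, was among the higher ones (log2 fold change 5.78 ± 1.04 SE, adjusted p = 0.0105).

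**Figure D2:**
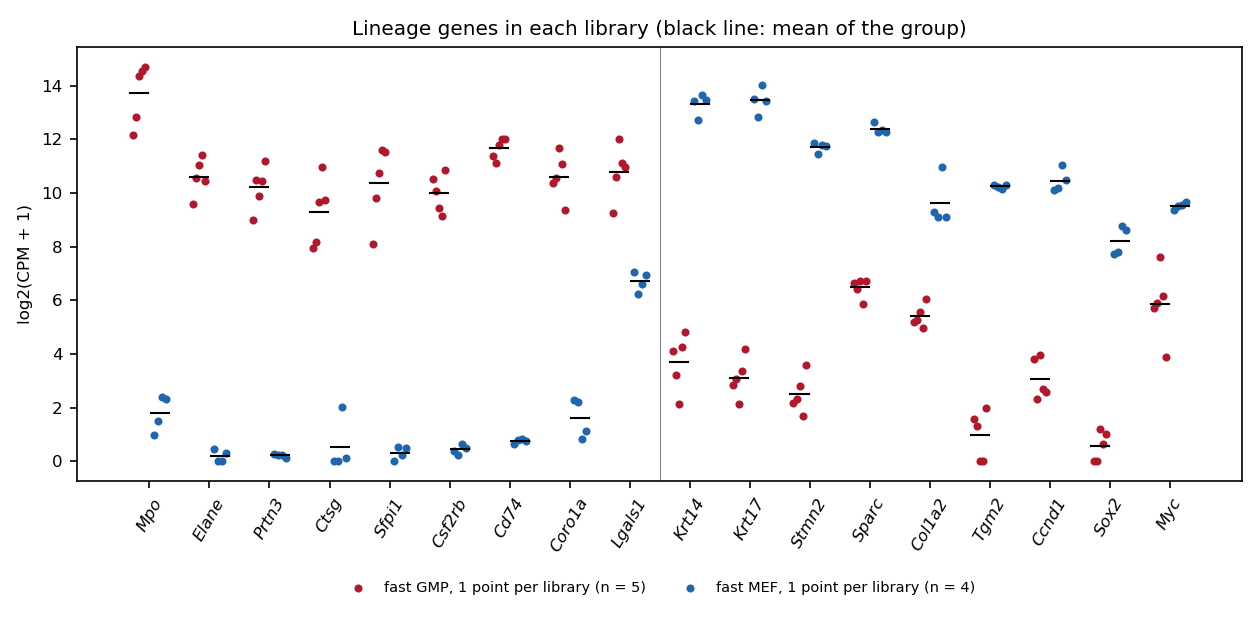
log2(CPM + 1) of 9 genes higher (left) and 9 lower (right of the line) in fast GMP, 1 point per library, with the mean of each group as a black line. No library of one group reaches the other for any of these 18 genes, and fast GMP replicates spread more widely than fast MEF for most.

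All 4 genes of the Yamanaka factors were lower in fast GMP than in the induced fibroblasts, beside 6.56% of all genes. Sox2 stood at 0, 0, 1.29, 0.551 and 0.999 CPM in fast GMP replicates 1 to 5 and at 212, 221, 433 and 394 CPM in fast MEF replicates 1 to 4 (log2 fold change -9.15 ± 0.89 SE, adjusted p = 0.000246, and log2 -9.94 without fast GMP replicate 3). Pou5f1, which encodes Oct4, was at 1.17, 0, 1.29, 0.551 and 0 CPM and 21.3, 35.2, 123 and 74.98 CPM (log2 fold change -6.54 ± 0.96 SE, adjusted p = 0.00176), and varied several-fold within fast MEF. Myc was at 51.4, 58.1, 196, 71.03 and 13.99 CPM and 662, 735, 743 and 802 CPM (log2 fold change -3.23 ± 0.64 SE, adjusted p = 0.00786, and log2 -3.90 without fast GMP replicate 3). Klf4 was at 57.6, 84.7, 132, 118 and 334 CPM and 453, 543, 999 and 823 CPM (log2 fold change -2.28 ± 0.58 SE, adjusted p = 0.0237). Both Myc and Klf4 had clear levels in fast GMP, and neither overlapped between the groups. Klf4 missed the threshold without fast MEF replicate 2, 3 or 4 (0.0528, 0.0698 and 0.0719). What part of these counts came from the transgenes was not tested. Of 22 pluripotency genes, 8 could be tested and 2 were lower in fast GMP, beside 6.56% of all genes. L1td1, an RNA-binding protein of pluripotent cells, was at 0 to 0.493 CPM in fast GMP and 70.03, 77.4, 86.9 and 96.2 CPM in fast MEF (log2 fold change -8.52 ± 1.01 SE, adjusted p = 0.000253, and log2 -9.12 without fast GMP replicate 2). With 2 counts in fast GMP, its pooled ratio of fast MEF over fast GMP was 402, with an exact Poisson 95% interval of 111 to 3317. Sall4, a pluripotency transcription factor, was at 0.493 to 5.06 CPM and 40.2, 45.4, 113 and 36.4 CPM (log2 fold change -4.56 ± 0.76 SE, adjusted p = 0.00359).

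Fibroblast genes were lower in fast GMP. Of 28 extracellular matrix genes tested, 21 were lower, beside 6.56% of all genes, and none higher. The 28 summed to 901, 898, 520.4, 439 and 790.4 CPM in fast GMP and 12179.6, 10524, 14920.2 and 10309.9 CPM in fast MEF. Scaled over all 24 libraries, all 30 genes of the list summed to 11350 to 15647 CPM in fast MEF. On that scale they were at 94582 to 129922 CPM in bulk, unsorted MEF and 127521 to 195235 CPM in slow induced MEF. Sparc, a collagen-binding matrix protein, was at 99.3, 84.2, 105, 57.3 and 106 CPM in fast GMP and 6362, 4979.7, 5209.9 and 4912 CPM in fast MEF (log2 fold change -5.89 ± 0.37 SE, adjusted p = 2.19e-05). Col1a1, a chain of type I collagen, was at 45.6, 272, 75.3, 34.7 and 47.96 CPM and 1008, 998, 2593 and 1132 CPM (log2 fold change -3.91 ± 0.67 SE, adjusted p = 0.0042, and log2 -4.84 without fast GMP replicate 2, which held the most). Col1a2, the other chain, was at 35.8, 37.4, 46.02, 30.3 and 64.9 CPM and 623, 555, 2008 and 549.6 CPM (log2 fold change -4.45 ± 0.54 SE, adjusted p = 0.000699, and log2 -3.79 without fast MEF replicate 3). Both chains were highest in fast MEF replicate 3. Serpinh1, the chaperone of collagen, was at 3.997 to 15.97 CPM and 492 to 801 CPM (log2 fold change -6.16 ± 0.52 SE, adjusted p = 0.000136). Matrix transcripts were thus detected in every fast GMP library, Sparc at 57.3 to 106 CPM, and where they came from was not tested. Thy1, a surface protein of fibroblasts and of some blood cells, did not pass the test, at 135, 327, 32.3, 15.97 and 179.9 CPM in fast GMP and 221, 219, 436 and 178 CPM in fast MEF (log2 fold change -0.93 ± 0.78 SE, adjusted p = 0.451, 95% interval -2.64 to 0.77).

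Contractile genes were lower in 8 of 13 tested, beside 6.56% of all genes, and higher in none. Tagln, an actin-binding protein of smooth muscle, was at 20.7 to 68.8 CPM in fast GMP and 682, 386, 1339 and 259 CPM in fast MEF (log2 fold change -4.03 ± 0.60 SE, adjusted p = 0.00202), and Acta2, smooth muscle actin, at 10.8 to 15.99 and 67.1 to 143 CPM (log2 fold change -3.03 ± 0.52 SE, adjusted p = 0.00345). Actg2, enteric smooth muscle actin, was at 0 to 3.44 and 137 to 168 CPM (log2 fold change -7.01 ± 0.79 SE, adjusted p = 0.000588, and log2 -8.10 without fast GMP replicate 3). Of 13 mesenchymal transcription factors, 6 were lower and 1 was higher, beside 6.56% and 7.47% of all genes. Tead2, which binds DNA for Yap, was at 0 to 8.96 and 211 to 361 CPM (log2 fold change -6.41 ± 0.85 SE, adjusted p = 0.00163, and log2 -7.36 without fast GMP replicate 1). Wwtr1, the coactivator Taz, was at 0 to 1.998 and 72.6 to 87.99 CPM (log2 fold change -6.38 ± 0.81 SE, adjusted p = 0.000968), and Prrx1, a limb mesenchyme factor, at 1.72 to 3.94 and 45.5 to 74.05 CPM (log2 fold change -4.59 ± 0.59 SE, adjusted p = 0.000895). Zeb2, which represses E-cadherin and also acts in blood cells, was the member that was higher, at 48.3, 117, 151, 298 and 599 CPM in fast GMP and 7.4, 6.32, 11.1 and 4.4 CPM in fast MEF (log2 fold change 5.05 ± 0.71 SE, adjusted p = 0.00294, and log2 4.37 without fast GMP replicate 5).

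Epithelial genes formed the other large part of the fast MEF side. Of 26 tested, 17 were lower in fast GMP, beside 6.56% of all genes, and none higher. The 26 summed to 552, 214, 201, 128 and 169 CPM in fast GMP and 21358, 13999, 22768 and 20569 CPM in fast MEF. Scaled over all 24 libraries, all 28 genes of the list summed to 15728 to 23884 CPM in fast MEF. On that scale they were at 482 to 770.4 CPM in bulk, unsorted MEF, 257 to 1461 CPM in slow MEF and 1589.7 to 2163 CPM in iPS cells. Krt14, a keratin of basal epithelia, was at 16.4, 8.37, 3.44, 18.2 and 26.98 CPM in fast GMP and 11046, 6725, 12894 and 11400.2 CPM in fast MEF (log2 fold change -9.50 ± 0.53 SE, adjusted p = 2.8e-05). Krt17, its relative in growing epithelia, was at 6.23, 7.39, 3.44, 9.36 and 16.99 CPM and 11768, 7340.0, 16648 and 11128 CPM (log2 fold change -10.42 ± 0.48 SE, adjusted p = 1.42e-05), and Krt8, a keratin of simple epithelia, at 8.96, 5.42, 0.86, 0.551 and 11.99 CPM and 1993, 1513, 1965 and 1709 CPM (log2 fold change -8.36 ± 0.73 SE, adjusted p = 0.000266). Fast MEF replicate 2 was the lowest of its group for all 3 keratins. How the counting treated reads shared by near-identical keratin genes and pseudogenes is not given in the sources used here, so these levels are uncertain. Sfn, the epithelial 14-3-3 protein, was at 3.997 to 50.7 and 1835 to 3559 CPM (log2 fold change -6.69 ± 0.71 SE, adjusted p = 0.000592), and Jup, plakoglobin of desmosomes and adherens junctions, at 1.65 to 13.2 and 973 to 1514 CPM (log2 fold change -7.21 ± 0.55 SE, adjusted p = 0.0001). Cdh1, E-cadherin, was at 35.1, 1.48, 4.3, 1.1 and 10.99 CPM in fast GMP and 168, 219, 221 and 199 CPM in fast MEF (log2 fold change -4.24 ± 0.89 SE, adjusted p = 0.0127). Fast GMP replicate 1 held most of its signal, and without it the log2 value was -5.55. Epcam, an adhesion protein of epithelia and pluripotent cells, did not pass, at 0 to 8.17 and 15.9 to 34.8 CPM (log2 fold change -3.06 ± 1.12 SE, adjusted p = 0.101).

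Of 7 neural genes tested, 6 were lower in fast GMP, beside 6.56% of all genes, and none higher. Stmn2, a tubulin-binding protein of neurons, was at 3.51, 3.94, 6.02, 2.2 and 10.99 CPM in fast GMP and 3745, 2801, 3572 and 3446 CPM in fast MEF (log2 fold change -9.34 ± 0.49 SE, adjusted p = 1.58e-05). Tubb3, the neuronal beta tubulin, was at 24.5, 4.93, 53.8, 16.5 and 239.8 CPM and 2902, 2278, 3252 and 2399.6 CPM (log2 fold change -5.33 ± 0.87 SE, adjusted p = 0.00442), with fast GMP replicate 5 above the others of its group (log2 -6.77 without it). Nefl, the light neurofilament, was at 16.4, 0.493, 0.86, 1.1 and 0.999 CPM and 754, 883, 901 and 628 CPM (log2 fold change -7.58 ± 0.91 SE, adjusted p = 0.00123, and log2 -9.82 without fast GMP replicate 1). No fast GMP library reached a fast MEF library for these 3 genes.

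By the fitted log2 fold change, the calls without overlap that led on the fast GMP side were Cebpe, Parvg, Tfec, H2-Ab1, Alox5ap, Elane, Prtn3, Pld4, Nfam1 and Hlx. For a gene with no count in a group this order depends on the prior count of the fit and is no measure of size, so a bound is given instead. Parvg, a focal adhesion protein of blood cells, was at 398, 248, 750.5, 256 and 102 CPM with no count in fast MEF, at least 4487-fold higher (adjusted p = 0.000318). Tfec, a transcription factor of macrophages, was at 40.9, 65.5, 164, 83.7 and 992 CPM with no count in fast MEF, at least 3445-fold higher (adjusted p = 0.00207), and at least 1133-fold without replicate 5, which held most of it. Alox5ap, needed for leukotriene synthesis, was at 33.9 to 666 CPM and at least 3033-fold higher (adjusted p = 0.00162), and at least 1663-fold without fast GMP replicate 3. Pld4, an exonuclease of myeloid cells, was at 28.04 to 354 CPM and at least 2007-fold higher (adjusted p = 0.000691). Hlx, a homeobox factor of blood cells, was at 73.999, 685, 2131, 67.7 and 122 CPM in fast GMP, with replicate 3 far above the others, and had 3 counts in all of fast MEF, a ratio of 8904, with an exact Poisson 95% interval of 3047 to 43174. Its fitted log2 fold change was 12.63, and 11.29 without fast GMP replicate 3. For Nfam1, an immune receptor, fast MEF had 1 count, in replicate 2, and fast GMP 154 to 584 CPM, a ratio of 12222, with an exact Poisson 95% interval of 2194 to 482764. Both ratios cover counting error only.

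By the same fitted value, which rests on the prior count for genes with no count in fast GMP, the calls that led on the fast MEF side were Phlda2, Tppp3, Rnf208, Krt17, Aldh1a1, Crabp2, Dsg3, Crb3, Kctd15 and Tgm2. Tgm2, a protein-crosslinking enzyme, was at 1.95, 1.48, 0, 0 and 2.998 CPM in fast GMP and 1261, 1194, 1133 and 1272 CPM in fast MEF (log2 fold change -9.96 ± 0.82 SE, adjusted p = 0.000159). Crabp2, which carries retinoic acid, was at 0 to 0.985 and 334 to 819 CPM (log2 fold change -10.23 ± 0.92 SE, adjusted p = 0.000136, and log2 -10.88 without fast GMP replicate 2), and Crb3, an apical polarity protein, at 0 to 1.1 and 279 to 459.7 CPM (log2 fold change -10.06 ± 0.96 SE, adjusted p = 0.000136, and log2 -11.24 without fast GMP replicate 4). Crb3 had 3 counts in all of fast GMP, and the pooled ratio of fast MEF over fast GMP was 1176, with an exact Poisson 95% interval of 402 to 5701. Phlda2, an imprinted growth-limiting gene, had no count in fast GMP and 24.4 to 106 CPM in fast MEF, at least 167-fold lower in fast GMP (adjusted p = 0.00192), and at least 108-fold without fast MEF replicate 3. Tppp3, a tubulin-binding protein, also had no count in fast GMP and was at 34.8 to 63.6 CPM in fast MEF, at least 157-fold lower in fast GMP (adjusted p = 0.00123). Aldh1a1, which makes retinoic acid, and Dsg3, a desmosomal cadherin, were at least 91.1-fold and 86.7-fold lower in fast GMP by the same floor (adjusted p = 0.00267 and 0.00251).

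**Figure D3:**
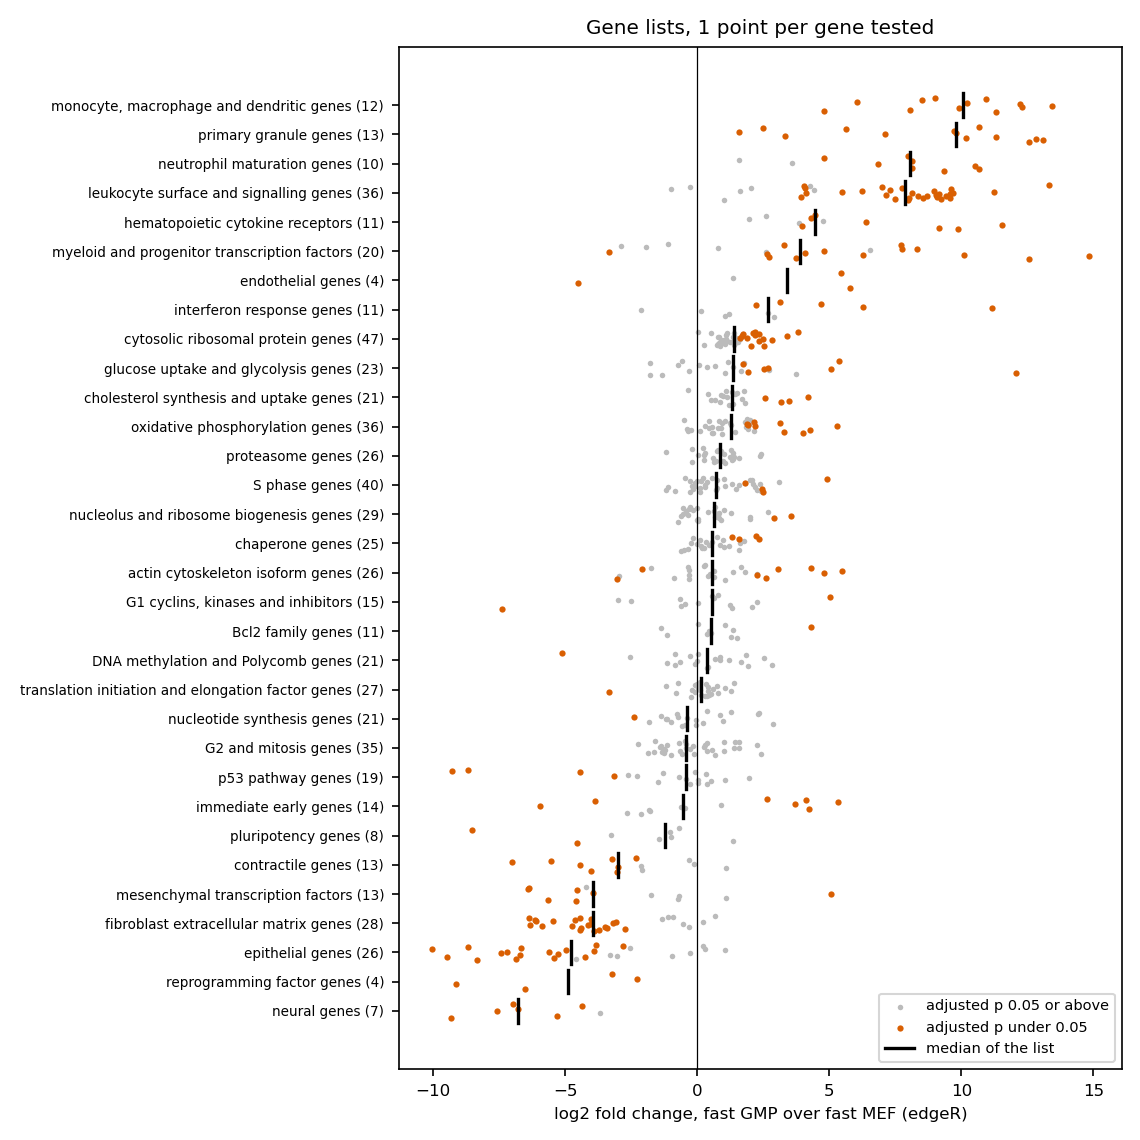
log2 fold change of fast GMP over fast MEF for every tested member of 32 gene lists with at least 4 tested members, sorted by the list's median (black bar), with the number tested in parentheses. Orange points passed the test and grey ones did not. Blood lists lie to the right, fibroblast, epithelial and neural lists to the left, and the lists of S phase, mitosis, ribosomal proteins and glycolysis between them, with medians from -0.42 to 1.38. For genes without counts in a group the plotted value depends on the prior count of the fit.

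Genes of DNA replication passed the test about as often as all genes, 10.0% against 14.0%, and no gene of mitosis passed. Of 40 S phase genes, 4 were higher in fast GMP and none lower, against 7.47% and 6.56% of all genes. Their median log2 fold change was 0.72, and -0.024 when libraries were scaled by totals alone. The 4 were Mcm3, Ccne1, Fen1 and Rfc2. Mcm3, a subunit of the replicative helicase, was at 245, 443, 1069, 987 and 1082 CPM in fast GMP and 144, 149, 142 and 107 CPM in fast MEF (log2 fold change 2.50 ± 0.52 SE, adjusted p = 0.0125). Ccne1, the cyclin of S phase entry, was at 218, 659.6, 131, 221 and 4.996 CPM and 3.94, 7.42, 2.49 and 18.4 CPM (log2 fold change 4.93 ± 0.98 SE, adjusted p = 0.0173). Without fast MEF replicate 1 or 2 none of the 40 passed, and without replicate 3 or 4 only 1 did, whereas 8 passed without fast GMP replicate 1. Mcm3 was at adjusted p = 0.0559, 0.0549 and 0.0644 without fast MEF replicate 1, 2 or 4, and Ccne1 at 0.0678, 0.0684 and 0.056 without replicate 1, 2 or 3. The log2 fold change of Ccne1 was 4.17 without fast GMP replicate 2 and 5.67 without fast MEF replicate 4. Fen1, the flap endonuclease (log2 fold change 1.82 ± 0.52 SE, adjusted p = 0.0463), and Rfc2, of the clamp loader (log2 fold change 2.43 ± 0.64 SE, adjusted p = 0.0354), lost their calls without each one of the fast MEF libraries (adjusted p 0.0886 to 0.179 and 0.0836 to 0.123) and without fast GMP replicate 2 or 4 (0.0618 and 0.0652, 0.0504 and 0.0547). Rfc2 was also at 0.0571 without fast GMP replicate 3. Mcm5, another helicase subunit, was at 259, 296, 837, 6384 and 489.6 CPM in fast GMP, with replicate 4 far above the rest, and 333, 279.9, 306 and 314 CPM in fast MEF, and did not pass (log2 fold change 2.42 ± 0.88 SE, adjusted p = 0.115). Pcna, the sliding clamp of DNA polymerase, was at 179, 173, 259, 335 and 617 CPM and 169, 217, 210.0 and 168 CPM (log2 fold change 0.71 ± 0.52 SE, adjusted p = 0.394, 95% interval -0.42 to 1.84). Its groups overlapped, and the interval reached from lower levels to more than 3-fold higher ones in fast GMP.

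Of 35 genes of G2 and mitosis, none passed edgeR's test in either direction, and 5 were under an unadjusted p of 0.05. DESeq2 called 2 higher and 3 lower, limma voom 1 and 3, scaling by totals alone 4 lower, and leaving out fast GMP replicate 5 gave 2 higher and 1 lower. The list summed to 1415, 2035, 1917, 2788 and 2475 CPM in fast GMP and 2142, 2791, 2221 and 2424 CPM in fast MEF, which overlapped. Top2a, the topoisomerase of chromosome separation, was at 131, 209.9, 470.1, 166 and 238 CPM in fast GMP and 132, 174, 186 and 164 CPM in fast MEF (log2 fold change 0.57 ± 0.52 SE, adjusted p = 0.499, 95% interval -0.56 to 1.70). Mki67, the antigen that marks dividing cells, was at 47.5, 84.2, 100.2, 100.2 and 70.9 CPM and 174, 221, 139.7 and 234 CPM, and although these did not overlap the gene did not pass (log2 fold change -1.25 ± 0.50 SE, adjusted p = 0.116). Ccnb1, the cyclin of mitotic entry, was at 32.3, 28.1, 24.9, 19.8 and 117 CPM and 69.5, 77.2, 64.1 and 55.5 CPM (log2 fold change -0.59 ± 0.65 SE, adjusted p = 0.576), and Cdk1, its kinase, at 13.99 to 42.4 and 13.4 to 21.5 CPM (log2 fold change 0.65 ± 0.60 SE, adjusted p = 0.505). Intervals of this width do not show that the levels are alike.

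Of 15 genes of G1, 1 was lower and 1 higher in fast GMP, 13.3% of the list against 14.0% of all genes. Ccnd1, cyclin D1, stood at 13.2, 3.94, 14.6, 5.51 and 4.996 CPM in fast GMP and 1118, 1165, 2116 and 1433 CPM in fast MEF (log2 fold change -7.41 ± 0.53 SE, adjusted p = 6.1e-05), a complete separation. Ccnd2, cyclin D2, was at 280.0, 459, 1141, 569.9 and 744 CPM and 189.9, 265, 282 and 286 CPM (log2 fold change 1.32 ± 0.50 SE, adjusted p = 0.109), and Ccnd3, cyclin D3, at 189, 338, 351, 1611 and 419.7 CPM and 164, 121, 142 and 123 CPM (log2 fold change 2.08 ± 0.63 SE, adjusted p = 0.0591). Neither of these passed, though for Ccnd3 the libraries did not overlap, and both did without fast GMP replicate 1 (adjusted p = 0.0328 and 0.0206). Cdk4, the kinase of D cyclins, was at 263 to 485 and 130.2 to 266 CPM (log2 fold change 1.23 ± 0.47 SE, adjusted p = 0.115), and Cdk6, the alternative kinase, at 0 to 16.3 and 7.59 to 20.9 CPM (log2 fold change -0.45 ± 1.05 SE, adjusted p = 0.808). E2f2, a transcription factor of S phase genes, was the member of this list that was higher in fast GMP, at 93.1, 94.1, 112, 465 and 159.9 CPM against 6.05, 4.76, 8.04 and 4.06 CPM (log2 fold change 5.01 ± 0.64 SE, adjusted p = 0.00165, and log2 4.31 without fast GMP replicate 4). Cdkn1a, the p53 target p21, was at 469, 731, 1387, 6642 and 465 CPM and 2533, 1609.8, 1548 and 1970.3 CPM (log2 fold change 0.018 ± 0.77 SE, adjusted p = 0.992), with fast GMP replicate 4 far above its group and the other 4 below the fast MEF range.

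Ribosomal protein genes leaned to fast GMP. All 47 tested had a positive log2 fold change, with a median of 1.38, and 15 were called higher and none lower, beside 7.47% of all genes. The median was 0.66 with 10 called when scaling by totals alone. Their summed level was 39773, 112772, 139378, 171909 and 157390.0 CPM in fast GMP replicates 1 to 5 and 31317, 27973, 32804 and 37586 CPM in fast MEF replicates 1 to 4, so that only replicate 1 of fast GMP came near the fast MEF range. Without that library 27 were called. The count was 4, 2, 5 and 6 without fast MEF replicate 1, 2, 3 or 4. Fau, which encodes the small subunit protein S30, was at 1828, 32819, 18042, 17746 and 4822 CPM in fast GMP and 957, 616, 1306 and 1423 CPM in fast MEF (log2 fold change 3.81 ± 0.68 SE, adjusted p = 0.00747). Ribosomal protein genes have many processed pseudogene copies. How the counting treated reads shared with these copies is not given, so single values are uncertain.

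Of 29 nucleolus and ribosome biogenesis genes, 2 were higher, Nop10 and Gar1, both of the particle that makes pseudouridine, next to 7.47% of all genes. The median log2 fold change of the list was 0.63, and -0.079 by totals alone. Nop10 was at 1120.5, 3828, 10676, 12979.7 and 18610.4 CPM in fast GMP and 1185, 763, 1953 and 1081 CPM in fast MEF (log2 fold change 2.92 ± 0.66 SE, adjusted p = 0.0201), with an adjusted p of 0.075, 0.0853 and 0.0786 without fast MEF replicate 1, 2 or 4. Gar1 was at 8.96, 100.5, 23.2, 261 and 24.98 CPM and 2.69, 8.71, 4.59 and 12.7 CPM (log2 fold change 3.54 ± 0.94 SE, adjusted p = 0.0459). Fast GMP replicates 2 and 4 carried it (log2 2.50, adjusted p = 0.0937 without replicate 4 and 0.0741 without replicate 2), and the call was lost without each one of the fast MEF libraries (0.0906 to 0.143). Npm1, a nucleolar chaperone, was at 551, 801, 1792, 1875 and 3446 CPM and 2297, 3286, 2655 and 2962 CPM and did not pass (log2 fold change -0.73 ± 0.53 SE, adjusted p = 0.381). The list summed to 4626 to 29468 CPM in fast GMP and 8439 to 9563 CPM in fast MEF. Of 27 translation factors, 1 was lower, Eif2s3x, the X-linked gene of an eIF2 subunit, at 61.1, 39.4, 33.1, 29.2 and 35.97 CPM and 427, 489, 332 and 360.2 CPM (log2 fold change -3.34 ± 0.47 SE, adjusted p = 0.00124). None of 26 proteasome genes passed edgeR's test, with 6 under an unadjusted p of 0.05, while DESeq2 called 6 higher and 1 lower and 5 were higher without fast GMP replicate 1.

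Energy metabolism leaned the same way. Of 36 oxidative phosphorylation genes 9 were higher and none lower, with a median log2 fold change of 1.26. Uqcrh, of respiratory complex III, was at 511, 2189.7, 2870.3, 2290.5 and 4740.3 CPM in fast GMP and 58.5, 64.2, 70.3 and 66.9 CPM in fast MEF (log2 fold change 5.28 ± 0.54 SE, adjusted p = 0.000592), and Ndufv1, of complex I, at 289, 1976, 1082, 1196 and 3203 CPM and 96.8, 50.6, 90.4 and 85.9 CPM (log2 fold change 4.26 ± 0.60 SE, adjusted p = 0.00244). For both, replicate 1 was the lowest fast GMP library and still above fast MEF. Of 23 genes of glucose uptake and glycolysis 7 were higher (30.4%, beside 7.47% of all genes) and none lower. This list summed to 10920 CPM in fast GMP replicate 1, below all fast MEF libraries (11163 to 14253 CPM). The other fast GMP libraries were at 16857 to 67063 CPM. Aldoa, aldolase A, was at 1782, 2186, 11021, 14259 and 9334 CPM and 1579, 1057, 1231 and 1533 CPM (log2 fold change 2.51 ± 0.60 SE, adjusted p = 0.0235), and Pkm2, the file's name for pyruvate kinase M, at 3851, 6148, 11196, 19216 and 14254 CPM and 3685, 2779.8, 3536 and 3044 CPM (log2 fold change 1.75 ± 0.47 SE, adjusted p = 0.0354). Neither held without any one of the fast MEF libraries (adjusted p 0.0744 to 0.0951 and 0.0938 to 0.138), and Pkm2 also lost its call without fast GMP replicate 3 or 4 (0.0592 and 0.0649). With libraries scaled by totals alone, Pkm2 lost its call and Aldoa kept it. The list count was 1 without fast MEF replicate 1 and 2 without replicate 2, 3 or 4. The oxidative count was 3, 3, 4 and 4 without fast MEF replicates 1 to 4 and 15 without fast GMP replicate 1. Ldha, lactate dehydrogenase A, ranged from below to far above fast MEF, at 578, 730.1, 3820.3, 3511 and 7173 CPM against 849 to 975 CPM (log2 fold change 1.77 ± 0.66 SE, adjusted p = 0.115, and 0.0257 without fast GMP replicate 1). Of 21 cholesterol genes 4 were higher (19.0%, beside 7.47% of all genes). Among them was Fdps, of the mevalonate pathway, at 451, 446, 1009, 931 and 662 CPM and 57.8, 56.5, 67.002 and 67.8 CPM (log2 fold change 3.49 ± 0.45 SE, adjusted p = 0.00123). This list kept 1 to 3 calls without each one of the fast MEF libraries and reached 7 without fast GMP replicate 1.

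Several smaller lists also held calls, next to 14.0% of all genes. They came to 45.5% of the interferon response genes tested, 21.1% of p53 pathway genes and 50.0% of immediate early genes. Of 11 interferon response genes 5 were higher in fast GMP and none lower, class I genes among them. H2-K1 was at 564, 815, 772, 1099 and 7849.9 CPM in fast GMP and 103, 95.9, 56.3 and 92.9 CPM in fast MEF (log2 fold change 4.67 ± 0.77 SE, adjusted p = 0.00631), with replicate 5 far above the others (log2 3.23 without it). H2-D1, another class I gene, was at 914 to 1996 and 125 to 224 CPM (log2 fold change 3.14 ± 0.43 SE, adjusted p = 0.00145). Psmb8, an immunoproteasome subunit, was at 110.3 to 497 and 0 to 0.192 CPM (log2 fold change 11.15 ± 0.93 SE, adjusted p = 0.000159). Class I genes are near-identical copies of each other, so their single levels are uncertain. Of 19 p53 pathway genes 4 were lower. They included Perp, a desmosomal p53 target, at 0 to 1.95 and 163 to 238 CPM (log2 fold change -8.69 ± 1.07 SE, adjusted p = 0.000699, and at least 479.6-fold lower without fast GMP replicate 1, the only one with counts), and Plk2, a stress-induced kinase, at 1.56 to 20.4 and 109 to 185 CPM (log2 fold change -4.44 ± 0.80 SE, adjusted p = 0.00571, and log2 -5.65 without fast GMP replicate 4). Trp53 itself was at 227, 462, 367, 304 and 99.9 CPM and 249.6, 209, 220.0 and 219.9 CPM (log2 fold change 0.38 ± 0.52 SE, adjusted p = 0.666). Of 14 immediate early genes 5 were higher and 2 lower. Klf6 was higher at 335 to 2227 and 38.97 to 76.4 CPM (log2 fold change 4.13 ± 0.62 SE, adjusted p = 0.00318), and Egr1, the early gene of growth factor signals, was lower at 3.12, 0, 3.44, 4.96 and 5.995 CPM against 173, 242, 183 and 262 CPM (log2 fold change -5.96 ± 0.77 SE, adjusted p = 0.0013). Jun was at 59.2, 90.1, 45.2, 1483 and 57.95 CPM and 26.5, 12.4, 16.7 and 17.5 CPM (log2 fold change 4.25 ± 1.03 SE, adjusted p = 0.0387), with replicate 4 far above the rest of fast GMP. Without that library it was at log2 1.81, and the call was also lost without each one of the fast MEF libraries (adjusted p 0.0952 to 0.124).

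Of 26 genes of actin cytoskeleton isoforms, 6 were higher and 2 lower (30.8%, next to 14.0% of all genes). Lgals1, galectin 1, was at 608, 1538, 4129, 2249.7 and 2000.4 CPM in fast GMP and 132, 73.9, 96.9 and 122 CPM in fast MEF (log2 fold change 4.31 ± 0.53 SE, adjusted p = 0.00117), Tmsb4x, which binds actin monomers, at 645 to 2489 and 198 to 324 CPM (log2 fold change 2.61 ± 0.47 SE, adjusted p = 0.00521), and Arpc1b, an Arp2/3 subunit prominent in blood cells, at 466 to 2706 and 21.99 to 84.04 CPM (log2 fold change 4.78 ± 0.62 SE, adjusted p = 0.00182). Actb, beta actin, did not overlap but did not pass, at 2830.3, 4966, 4895, 4256 and 6842 CPM and 2279, 2081, 2463 and 2289.5 CPM (log2 fold change 1.06 ± 0.38 SE, adjusted p = 0.0882, and 0.0166 without fast GMP replicate 1). Bcl2l11, which encodes the death promoter Bim, was the member of the Bcl2 family that was higher, at 18.7 to 117 and 2.21 to 4.31 CPM (log2 fold change 4.30 ± 0.73 SE, adjusted p = 0.00621), of 11 tested. Phc1, a Polycomb subunit, was the member of its list of 21 that was lower, at 0 to 9.35 and 70.3 to 104 CPM (log2 fold change -5.14 ± 1.01 SE, adjusted p = 0.00986, and log2 -6.84 without fast GMP replicate 1). Of 25 chaperones 4 were higher, a count of 9 without fast GMP replicate 1, of 1 (with 1 lower) by totals alone and of 0 without each one of the fast MEF libraries.

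To ask which genes were equally high, genes with at least 100 CPM on average in each group were taken, 990 in all, and the 95% interval of the fold change had to lie within 2-fold either way. Only 5 met this (0.505%), and 188 met a 3-fold limit (19.0%). Another 96 were called different, 82 higher and 14 lower in fast GMP, and 706 were neither. The interval's half-width had a median of 1.30 and a lowest value of 0.80 on the log2 scale, so that an estimate had to lie near 0 to pass the 2-fold limit. Leaving out 1 library gave between 0 genes (without any one of the fast MEF libraries) and 17 (without fast GMP replicate 5), with 2, 1, 8 and 8 without fast GMP replicate 2, 3, 4 or 1.

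The 5 genes were Tubb5, Tpt1, Sf3b2, Eif4a1 and Mark2. Tubb5, the beta tubulin of most dividing cells, was at 1591, 2747, 3524, 3762 and 2236 CPM in fast GMP and 2905, 2545, 3693 and 2442 CPM in fast MEF (log2 -0.063, 95% interval -0.93 to 0.80). Tpt1, a translation-linked tumor protein, was at 578, 696, 743, 1009 and 1315 CPM and 849, 849, 807 and 771 CPM (log2 0.084, -0.82 to 0.99). Eif4a1, the helicase of translation initiation, was at 625, 444, 858, 828 and 818 CPM and 803, 717, 637 and 641 CPM (log2 0.03, -0.86 to 0.92). For these 3 the groups overlapped around the same mean. Sf3b2, of the splicing factor SF3B, was at 610.3, 712, 664, 1196 and 672 CPM and 840.5, 565, 765 and 758 CPM (log2 0.075, -0.83 to 0.98), and Mark2, a polarity kinase, at 336, 363, 461, 529 and 399 CPM and 514, 256, 375 and 475 CPM (log2 0.044, -0.91 to 0.995).

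Within the 3-fold limit, translation factors took 13 places of the 23 whose level was at least 100 CPM in each group, next to 19.0% of all such genes. Eef1a1, the elongation factor that brings tRNA to the ribosome, was at 1177, 1546, 3208, 2091 and 3661 CPM and 3044, 3315, 2395 and 2416 CPM (log2 -0.26, -1.21 to 0.69). Chaperones took 8 of 19, actin cytoskeleton genes 5 of 18, nucleolar genes 3 of 13, S phase genes 3 of 8, mitosis genes 2 of 5 and ribosomal protein genes 2 of 43. The ribosomal list of 49 members does not hold every such gene, and other ribosomal protein genes outside it also met the 3-fold limit. The S phase genes were Uhrf1, Lig1 and Mcm2 and the mitosis genes Cdc20 and Tpx2, which were chosen after their values were seen because the counts are small. Gapdh, the usual reference gene, was at 1756, 2921, 6374, 6011 and 6398 CPM and 4549, 3156, 3500.2 and 3529 CPM (log2 0.35, -0.64 to 1.33). Ncl, nucleolin, had similar means, 1089 ± 1038 and 1077 ± 207 CPM (SD, n = 5 and 4), although fast GMP spread from 364 to 2919 CPM.

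**Figure D4:**
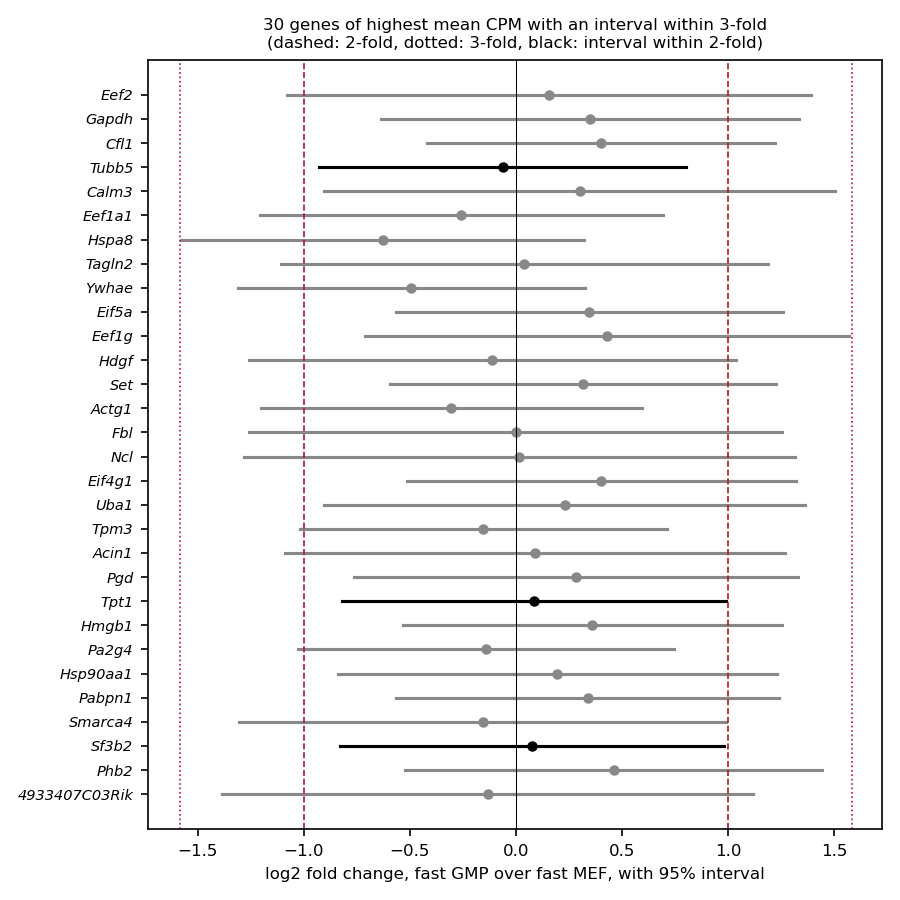
log2 fold change of fast GMP over fast MEF (point) with its 95% interval (line) for the 30 genes of highest mean CPM whose interval lies within 3-fold (dotted lines). Tubb5, Tpt1 and Sf3b2 in black lie within the 2-fold limit (dashed lines).

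The same lineages were also sorted as slow dividing cells, 3 libraries of slow GMP and 4 of slow MEF grown in the same media for the same hours on the dye. This allowed the difference of GMP from MEF to be set against its counterpart. Lineage, factor induction, medium and hours on the dye differed together between the slow gates too. Of 13916 genes tested, 2117 (15.2%) differed between the slow gates, 1062 higher and 1055 lower in slow GMP. Of the 1467 calls between the fast gates, 630 were called in the slow gates with the same sign and 6 with the opposite sign. The difference between the differences passed the test in 192 genes (1.38%), 110 with a higher and 82 with a lower value in the fast gates, and 2795 were under an unadjusted p of 0.05. Without fast GMP replicate 1 there were 516, without a fast MEF library 85 to 104, without slow GMP replicate 1 there were 114 and without a slow MEF library 85 to 99.

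Extracellular matrix genes supplied 12 of the 192, out of 28 tested, next to 1.38% of all genes. Of 28, 27 were lower in slow GMP than in slow MEF, and for these 12 the difference between the fast gates was the smaller one. Of the 12, 11 also passed without each one of the 16 libraries. For Col1a1 the log2 difference of GMP over MEF was -4.11 between the fast gates and -9.43 between the slow gates (difference 5.32 ± 0.83 SE, adjusted p = 0.00866, and 0.00438 to 0.0277 without each one of the 16 libraries). Col1a2 was at -4.66 and -9.47 (4.81 ± 0.71 SE, adjusted p = 0.00752), and Thy1 at -1.17 and -8.19 (7.02 ± 0.99 SE, adjusted p = 0.00752). In means over libraries scaled across all 24, Thy1 stood at 122 ± 114 CPM in fast GMP (SD, n = 5) and 11.02 ± 5.73 CPM in slow GMP (n = 3), against 286 ± 116 CPM in the fast and 3226 ± 339.6 CPM in the slow gate of MEF (n = 4). The mean of Thy1 was higher in the fast than in the slow gate of GMP and lower in the fast than in the slow gate of MEF, differences that were not tested one by one.

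Epithelial genes went the other way. Of 26, 5 were lower in slow GMP than in slow MEF against 17 in the fast gates. Over all genes, 1055 of 13916 were lower in slow GMP. For 4 of the 26 the difference between the gates itself passed, next to 1.38% of all genes. Krt14 was at -9.76 between the fast and -5.02 between the slow gates (-4.74 ± 0.95 SE, adjusted p = 0.0201), and its call was lost without 2 of the 16 libraries (up to 0.0546). Crb3 was at -10.28 and 1.72 (-11.996 ± 1.92 SE, adjusted p = 0.00799) and Krt17, a keratin that this list does not hold, at -10.66 and -4.08 (-6.58 ± 1.13 SE, adjusted p = 0.0111). Stmn2, the neural gene, was at -9.57 and -3.89 (-5.68 ± 0.93 SE, adjusted p = 0.00799). For Krt17 the mean was 12736 ± 3777 CPM in the fast and 201 ± 227 CPM in the slow gate of MEF (SD, n = 4).

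For the cell cycle, more genes passed between the slow gates. Of 40 S phase genes 18 were higher in slow GMP than in slow MEF, against 4 between the fast gates, and of 35 mitosis genes 9 against 0. Over all genes, 1062 of 13916 were higher in slow GMP and 781 of 10459 in fast GMP. These counts come from separate tests and were not compared with each other. The difference between the gates itself passed for 3 of the 75, next to 1.38% of all genes. They were Mcm10, a replication initiation factor, Rrm2, of ribonucleotide reductase, and Aurkb, a mitotic kinase. They are named because they are so few, after their values were seen, and Rrm2 lost the call without 8 of the 16 libraries (up to 0.0738). Scaled over all 24 libraries, the 36 mitosis genes in the list summed to 1217 to 2477 CPM in fast GMP, 2336 to 3137 CPM in fast MEF, 1701 to 2238 CPM in slow GMP and 415 to 557 CPM in slow MEF. S phase genes summed to 2669.9 to 13882, 3559 to 3944, 4264 to 7248 and 736 to 845 CPM in the same order. Slow MEF stood below the other 3 groups in both sums. Ccnd2 was at 1.12 between the fast and -2.36 between the slow gates (3.48 ± 0.77 SE, adjusted p = 0.0381), and lost this call without 11 of the 16 libraries (up to 0.089). Top2a was at 0.37 and 3.002 (-2.63 ± 0.75 SE, adjusted p = 0.073), which did not pass.

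**Figure D5:**
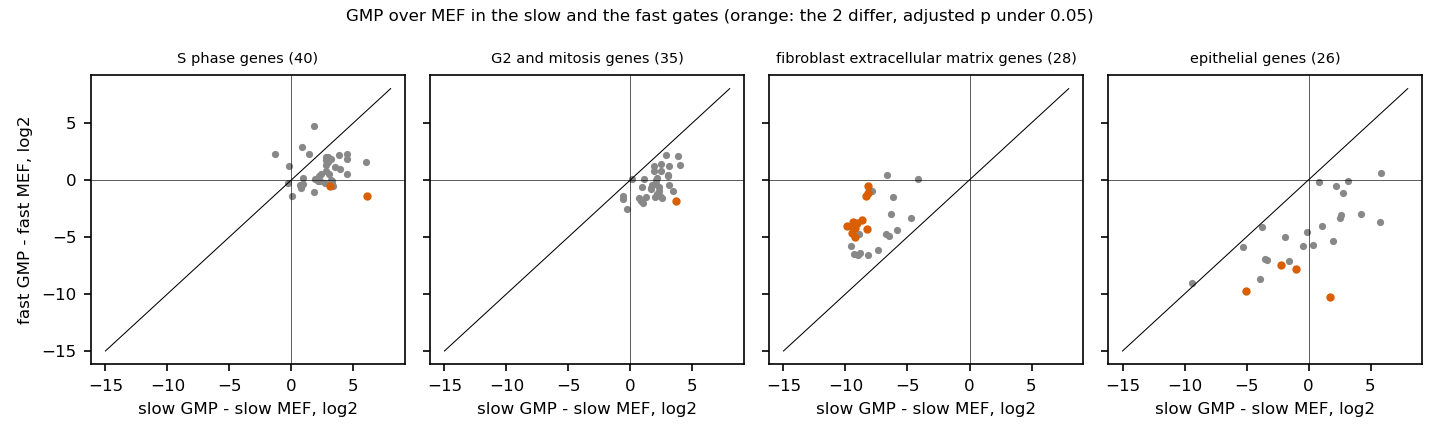
log2 difference of GMP over MEF between the slow gates (horizontal) and the fast gates (vertical) for the tested members of 4 lists, with the line of equal differences. Orange genes passed the test of the difference between gates. S phase and mitosis genes lie mostly to the right of 0 and around 0 on the vertical axis, matrix genes above the line and epithelial genes below it.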

How the data were processed

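RNA-seq of 1000 sorted cells per well was deposited by the authors as whole-number read counts per gene, in 1 table of 23283 genes for 24 libraries. The submitters' processing notes name CASAVA 1.8.2, TopHat2 2.0.4, HTSeq and build mm9, and the labels' protocols describe cytosolic RNA and oligo-dT priming. Whether the counting used strand is not given in the sources used here. Depth is the total count, 2144732 to 10248532 in the 9 libraries.

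Rn45s and Lars2 were left out, libraries were scaled by TMM, and genes with low counts were dropped by filterByExpr. Fast GMP (n = 5) and fast MEF (n = 4) were then compared with edgeR 4.0.16 in R 4.3.3 (quasi-likelihood test, robust, Benjamini-Hochberg adjustment over all genes tested, threshold 0.05), with only these 9 libraries in the fit. Positive log2 fold changes are higher in fast GMP. Standard errors and 95% intervals are Wald values from the fit. The difference between gates in the log2 difference of GMP over MEF was tested in 1 fit of 16 libraries in 4 groups. CPM of 6 groups were scaled over 24 libraries. Replicates were compared first: of 16 pairs within the groups none held identical values, and all differed by more than sampling noise.

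A group with no count of a gene was set to a floor of 3 counts for bounds on a fold. Intervals of ratios cover counting error only. Genes named are the 10 largest calls each way among genes without overlap and with 20 CPM or more on the higher side, up to 4 called members of each list in the leading direction and 2 in the other, the 20 highest genes called equally high, up to 2 equally high members of each list, and anchor genes set per list; others are said to be chosen after their values were seen. The 35 lists have 758 members, of which 750 matched the file by symbol, 6 by an older symbol and 2 by neither. The lists, the members and this comparison were chosen with earlier results of these data known. Alternatives were other scalings, filters, tests (DESeq2 1.42.0, limma 3.58.1), thinning, all libraries in 1 fit, the replicate number as a block and each library left out. Promoters came from RefSeq. Some items are not reported here.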

Additional observations from a re-analysis of the deposited data

Results flagged for a closer look

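A library was called far from its group where its gap to the next library on the log2(CPM + 1) scale took more of the range than Dixon's 95% value allows. Over the genes named in the text this happened in 23 of 266 groups of libraries. For normally spread values chance alone gives about 1 in 20. A group with counts in only 1 library always meets the rule, as for Kit, Hdc, Nfam1, Perp and Kctd15. The share of groups is thus no test against 1 in 20. In fast GMP replicate 1 this held for Nefl at 16.4 CPM against 0.493 to 1.1 in the others and Perp at 1.95 CPM against 0 in each of the others. In fast GMP replicate 2 this held for Egr1 at 0 CPM against 3.12 to 5.995 in the others. In fast GMP replicate 3 this held for Kctd15 at 0.43 CPM against 0 in each of the others and Tnfrsf1b at 1592 CPM against 327 to 501 in the others. In fast GMP replicate 4 this held for Jun at 1483 CPM against 45.2 to 90.1 in the others, Lig1 at 628 CPM against 136 to 184 in the others and Sf3b2 at 1196 CPM against 610.3 to 712 in the others. In fast GMP replicate 5 this held for Ccnb1 at 117 CPM against 19.8 to 32.3 in the others, H2-K1 at 7849.9 CPM against 564 to 1099 in the others, Mcm10 at 4.996 CPM against 25.9 to 33.5 in the others, Mmp8 at 123 CPM against 22.2 to 34.98 in the others and Rrm2 at 168 CPM against 51.4 to 71.4 in the others. In fast MEF replicate 1 this held for Kit at 0.384 CPM against 0 in each of the others. In fast MEF replicate 2 this held for Hdc at 0.183 CPM against 0 in each of the others and Nfam1 at 0.0916 CPM against 0 in each of the others. In fast MEF replicate 3 this held for Col1a1 at 2593 CPM against 998 to 1132 in the others, Col1a2 at 2008 CPM against 549.6 to 623 in the others, Ctsg at 3.06 CPM against 0 to 0.0845 in the others, H2-K1 at 56.3 CPM against 92.9 to 103 in the others and Mmp8 at 1.72 CPM against 0 to 0.0916 in the others. In fast MEF replicate 4 this held for Mcm3 at 107 CPM against 142 to 149 in the others and Prtn3 at 0.0845 CPM against 0.183 to 0.192 in the others. Below 1 CPM such a gap rests on a few counts.

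The log2 difference of GMP over MEF was tested between the gates, fast minus slow, in edgeR's fit of 4 groups (adjusted p under 0.05). It was higher in the fast gates by 3.41 for Acta2, 7.65 for Alox5ap, 4.36 for Arhgdib, 3.48 for Ccnd2, 5.32 for Col1a1, 4.81 for Col1a2, 9.42 for Hlx, 4.51 for Lgals1, 6.89 for Psmb8, 3.54 for Tagln and 7.02 for Thy1. It was lower by the same measure, with negative values, at -5.57 for Aurkb, -11.996 for Crb3, -5.21 for Jup, -6.31 for Kctd15, -4.74 for Krt14, -6.58 for Krt17, -10.20 for L1td1, -7.50 for Mcm10, -3.65 for Rrm2, -5.62 for Sox2, -5.68 for Stmn2, -6.46 for Tgm2 and -12.11 for Tppp3. Acta2 is smooth muscle actin, Lgals1 galectin 1 and Psmb8 an immunoproteasome subunit. Values of genes without counts in a group, such as Alox5ap and Tppp3 in the fast gates, depend on the prior count of the fit and are no measure of size. The number of the 16 libraries whose removal, one at a time, ended the call was 11 for Alox5ap, 11 for Ccnd2, 9 for Hlx, 5 for Jup, 8 for Kctd15, 2 for Krt14, 1 for Lgals1, 7 for Psmb8, 8 for Rrm2, 10 for Sox2, 9 for Tagln and 1 for Tgm2.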

How the results depend on the processing

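Over the alternatives run, no called named gene reversed its direction, while 11 of 27 named genes that had not passed changed sign under at least 1. Of 129 called named genes 86 kept the call under every alternative in which they were tested. The other 43 lost the call under at least 1 left-out library, and 52 of the 129 moved by more than 1.5 times without 1 library. Fast GMP libraries held 2144732 to 4411526 counts, of which 19.9% to 48.9% were Rn45s and Lars2. With every library thinned to 1717903 counts, 1506 genes passed. A group with no count allows 0.308 CPM in fast GMP and 0.0782 CPM in fast MEF.

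The 1467 calls between the fast gates (781 higher, 686 lower) became 2677 (1514 and 1163) with DESeq2, 2990 (1293 and 1697) with limma voom and quality weights and 3163 (1681 and 1482) with all 24 libraries in 1 fit, and 1364 (519 and 845) with library totals only. The median log2 fold change of all genes moved by -0.59 with totals only, -0.57 with voom, 0.17 with all 24 libraries, 0.53 with no filter (10459 genes tested became 20317) and -0.12 with upper-quartile factors. Leaving out 1 library gave 813 to 2293 calls, 411 to 1028 higher and 396 to 1265 lower. Between the slow gates DESeq2 gave 3612 calls and leaving out 1 library 1293 to 2528. For the difference between gates, a 10 CPM filter gave 322 (180 and 142), DESeq2 1568 (1034 and 534) and leaving out 1 library 85 to 516, with 45 to 234 higher and 35 to 282 lower. Genes equally high in both numbered 27 with DESeq2, 54 with all 24 libraries, 29 with totals only, 40 with voom, 3 when thinned, 10 with upper-quartile factors, 188 with a 3-fold limit and 0 to 17 without 1 library. The cause of these shifts was not tested.

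The replicate numbers share no stated source, and fast GMP and fast MEF libraries of the same number correlated at -0.036, -0.027, -0.035 and 0.013 in their deviations, with 0 of 4 fast MEF libraries correlating best with its own number. With the replicate block, 1168 genes passed between the fast gates (574 and 594, median shift -0.52), 1691 between the slow gates, 93 for the difference between gates (59 and 34), and 0 were equally high.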
